A study of Rattus norvegicus with 86 samples.

Results

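Dlx2 (ENSRNOG00000001519) encodes a homeobox transcription factor of the distal-less family. It is 1 of 17250 genes in the expression table of the prelimbic cortex (PL) of Heterogeneous Stock (HS) rats. Its row was taken by its Ensembl identifier, at a time when earlier results of these data were known. PL is a part of the medial prefrontal cortex, and HS rats are an outbred population descended from a cross of inbred founder strains. The study profiled brain regions of these rats by RNA-Seq in order to map genetic effects on expression, and no group of rats was treated: all were naive to drugs and behavioral testing. The comparisons that the labels allow are therefore those between the sexes and between rat batches, together with the variation from rat to rat. Of 86 labelled PL samples, 6 had been removed by the authors, 3 as expression outliers, 2 for a genotype mismatch and 1 for a low read count. The other 80 samples, 1 library from each of 40 females and 40 males, were analyzed here. The labels place 14 of these rats in batch 2 (3 females, 11 males), 23 in batch 3 (13 females, 10 males), 26 in batch 4 (15 females, 11 males), 1 female in batch 5 and 16 in batch 6 (8 females, 8 males). What a rat batch stands for beyond this number is not stated in the labels.

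Distal-less homeobox genes act in the embryonic ventral forebrain, where Dlx2 and its genomic neighbor Dlx1 are switched on in progenitors of GABAergic neurons. Together they promote the migration and the inhibitory identity of cells that become cortical interneurons, and genes of GABA synthesis are among their known targets. Some adult interneurons keep a low level of Dlx gene expression, while the pyramidal neurons that make up most of the cortex do not arise from that lineage. In pieces of whole tissue such as these, fewer cells of a type and less RNA per cell cannot be told apart.

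Values in the table are log2(adjusted count + 1), where the adjusted count is a gene's estimated read number after upper quartile scaling of the library. Adjusted counts summed to between 16957388 and 20613398 per library. Recovered from the spacing of these counts, the depth was 10174405 to 32643825 reads per library with a median of 18244152, and the depth was unrelated to the Dlx2 level (r = 0.05 and rho = 0.05 across the 80 rats, as a description).

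Dlx2 was detected in every rat, at a low level. Its adjusted count was 20 in the lowest rat, 36 in the median rat and 63 in the highest, a range of 3.15-fold. On the log2 scale the mean was 5.19 ± 0.36 (SD, n = 80), with a lowest value of 4.39, a median of 5.21 and a highest value of 6.0. Values showed no wide gap between high and low rats, although counting error would blur levels that lie close together. The quartiles were 4.95 and 5.43, the largest gap between neighboring rats was 0.12 and the skewness was -0.10. There were 21 rats below 5, 43 rats from 5 to under 5.5, and 16 rats at 5.5 or above. The mean of Dlx2 lay above that of 25.6% of the genes in the table. This is a rank of read numbers that are not divided by transcript length, so it does not order the genes by transcripts per cell.

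The small read number sets how closely a single rat can be read. Recovered reads of Dlx2 ranged from 16 to 82 with a median of 37. The exact Poisson 95% interval is 9.15 to 26 reads for the rat with 16 reads and 65.2 to 102 for the rat with 82, and these intervals cover counting error only. With sex and batch removed, the SD among rats was 0.36 log2 units. Counting alone would give an SD of 0.24, or 44.3% of that variance, which leaves an SD of 0.27 among libraries. With 1 library per rat, this remainder holds differences in dissection, extraction and library preparation as well as differences between rats, and these cannot be told apart.

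Dlx2 varied less than most genes of its level. Among 1089 genes with a mean within 0.5 log2 units of its own, the median SD was 0.44, and 18.9% had a smaller SD than Dlx2. All 12 interneuron genes with a name had a higher mean than Dlx2, and 10 of them had a smaller SD, as the plot of spread against level shows. Slc32a1, the vesicular transporter that loads GABA into synaptic vesicles, had a mean of 10.25 and an SD of 0.28. Nos1 and Syt2, at 0.45 and 0.49, had larger SDs than Dlx2.

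**Figure D1:**
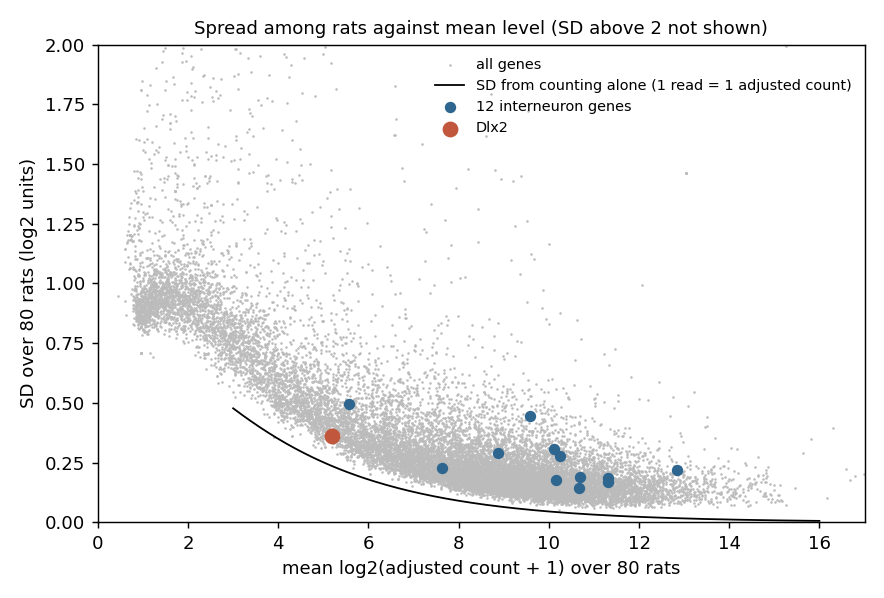
SD over 80 rats (log2 units) against mean log2(adjusted count + 1) for all genes (gray), for 12 interneuron genes (blue) and for Dlx2 (red). The black line is the SD that counting reads would give if 1 read were 1 adjusted count, and Dlx2, at a mean of 5.19 and an SD of 0.36, lies above that line and in the lower part of the cloud of genes at its level.

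The first comparison asks whether Dlx2 differed between rat batches. In batch 2, adjusted counts were 20 in the lowest rat, 34 in the median rat and 48 in the highest. In batch 3 they were 26, 37 and 61, in batch 4 they were 22, 36 and 63, and in batch 6 they were 20, 35.5 and 55. The only rat of batch 5 had an adjusted count of 51. The 4 larger batches overlapped over most of their ranges, with log2 means of 5.06 ± 0.37 (SD, n = 14), 5.26 ± 0.30 (n = 23), 5.19 ± 0.38 (n = 26) and 5.17 ± 0.41 (n = 16).

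**Figure D2:**
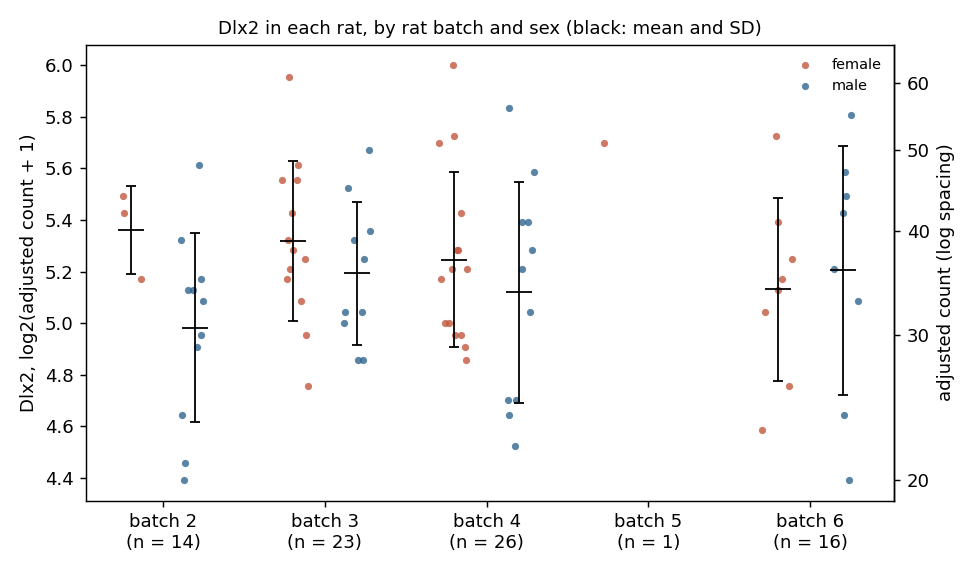
Log2(adjusted count + 1) of Dlx2 in each of 80 rats (left axis, with the adjusted count on the right axis at log spacing), by rat batch, with females in red and males in blue. Black bars give the mean and SD of each group of more than 1 rat, and every group mean lies between 4.98 and 5.36.

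Dlx2 did not pass the test of rat batch, although 59.4% of the 17250 genes did (F-test of limma, given sex, at an adjusted p under 0.05 by Benjamini-Hochberg over all genes). For Dlx2, F was 0.78 and the adjusted p was 0.603, and a permutation test of Dlx2 alone, with batch shuffled within each sex, gave p = 0.514. A smaller batch p-value than that of Dlx2 was found for 89.8% of genes. Of the 1089 genes near its level, 488, or 44.8%, passed the same test. Batch accounted for 3.96% of the variance of Dlx2 beyond sex.

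The intervals bound how far Dlx2 could have differed between batches 2, 3, 4 and 6. Batch 5, which holds 1 rat, was left out of these pairs. The largest estimate among the pairs was batch 3 over batch 2, a log2 difference of 0.16 (95% interval -0.09 to 0.41), which is a ratio of 1.12 (0.938 to 1.33). Batch 4 was 0.09 above batch 2 (-0.16 to 0.33) and batch 6 was 0.07 above it (-0.20 to 0.34). Against batch 3, the difference was -0.07 for batch 4 (-0.28 to 0.13) and -0.09 for batch 6 (-0.32 to 0.15). Batches 4 and 6 differed by -0.01 (-0.24 to 0.22). Every interval included 0, and the bounds of all 6 lay between ratios of 0.799 and 1.33.

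Batches 4 and 6 differed from batches 2 and 3 in a large part of the transcriptome, a contrast chosen after the data had been seen. Of all genes, 28.8% were higher and 26.6% lower in batches 4 and 6 (limma, adjusted p under 0.05). Dlx2 did not pass, with a log2 difference of -0.00065 (95% interval -0.17 to 0.17, adjusted p = 0.996). Of the 12 interneuron genes with a name, 3 were higher and 4 lower in batches 4 and 6, a share near that of all genes. The other 5 did not pass, with log2 differences of 0.01 for Nr2f1, -0.01 for Vip, 0.06 for Htr3a, 0.03 for Kcnc2 and -0.17 for Syt2. The 4 genes with the largest shifts are given next. Slc32a1 had log2 means of 10.47 ± 0.14 in batch 2 and 10.47 ± 0.16 in batch 3, against 10.04 ± 0.22 in batch 4 and 10.07 ± 0.20 in batch 6. It was lower by a log2 difference of -0.42 in batches 4 and 6 (limma, adjusted p = 1.12e-13). Nos1, the neuronal nitric oxide synthase that marks a subset of interneurons, was higher by 0.67 (adjusted p = 1.64e-13). Cplx1, a complexin that regulates vesicle fusion and is abundant in fast-spiking interneurons among other neurons, differed by -0.35 (adjusted p = 7.49e-15). Penk, the precursor of enkephalins, which is made by striatal projection neurons as well as by some interneurons, differed by -0.33 (adjusted p = 1.40e-06).

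These shifts were set against that of Dlx2 in 1 test, by fitting the log2 value of each other gene minus that of Dlx2 over all 17249 of them (limma, with sex as a covariate). The shift lay above that of Dlx2 for 13.9% of genes and below it for 8.73%. Of the 12 interneuron genes with an identifier, 4 differed from Dlx2 in their shift. Slc32a1 fell below Dlx2 by a log2 difference of -0.42 (95% interval -0.60 to -0.24, adjusted p = 0.000203), Cplx1 by -0.35 (-0.52 to -0.17, adjusted p = 0.00169) and Penk by -0.33 (-0.54 to -0.13, adjusted p = 0.0129). Nos1 rose above it by 0.67 (0.47 to 0.88, adjusted p = 4.57e-07). For the other 8 genes, the difference from Dlx2 did not pass the threshold, and their estimates ran from -0.17 for Syt2 to 0.14 for Calb1.

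The second comparison asks whether Dlx2 differed between females and males. Females had adjusted counts of 23 in the lowest rat, 36.5 in the median rat and 63 in the highest, and males had 20, 34 and 56. The log2 mean was 5.27 ± 0.32 (SD, n = 40) in females and 5.12 ± 0.39 (n = 40) in males, and the sexes overlapped over nearly their whole range. With batch as a covariate, the male minus female difference was -0.12 log2 units (SE 0.08, 95% interval -0.28 to 0.05), a ratio of 0.923 (0.821 to 1.04). It did not pass the test (limma, adjusted p = 0.803), and a permutation test with sex shuffled within batches gave p = 0.174. Over all genes, 0.29% were higher and 0.0754% were lower in males. Sex accounted for 2.34% of the variance of Dlx2 beyond batch.

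Within batches, the estimate of the sex difference varied in size and sign. In batch 2, the 3 females had adjusted counts of 35, 42 and 44, and the 11 males had 20 in the lowest rat, 33 in the median rat and 48 in the highest. The male minus female log2 difference there was -0.38, with an exact permutation p of 0.0989 (two-sided, 3 females and 11 males). It was -0.13 in batch 3 (5.19 ± 0.28 in 10 males, 5.32 ± 0.31 in 13 females, permutation p = 0.325) and -0.13 in batch 4 (5.12 ± 0.43 in 11 males, 5.25 ± 0.34 in 15 females, permutation p = 0.407). In batch 6, males were at 5.21 ± 0.48 (n = 8) and females at 5.13 ± 0.36 (n = 8), a difference of 0.07 with an exact permutation p of 0.728. Adjusted over these 4 comparisons, the p-values were 0.396, 0.542, 0.542 and 0.728 (permutation tests). The sex by batch term of a fit to the 79 rats outside batch 5 did not pass either (limma, F = 0.78, adjusted p = 0.9999). No gene passed that term, where 410 of 17250 genes, or 2.38%, had an unadjusted p under 0.05.

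**Figure D3:**
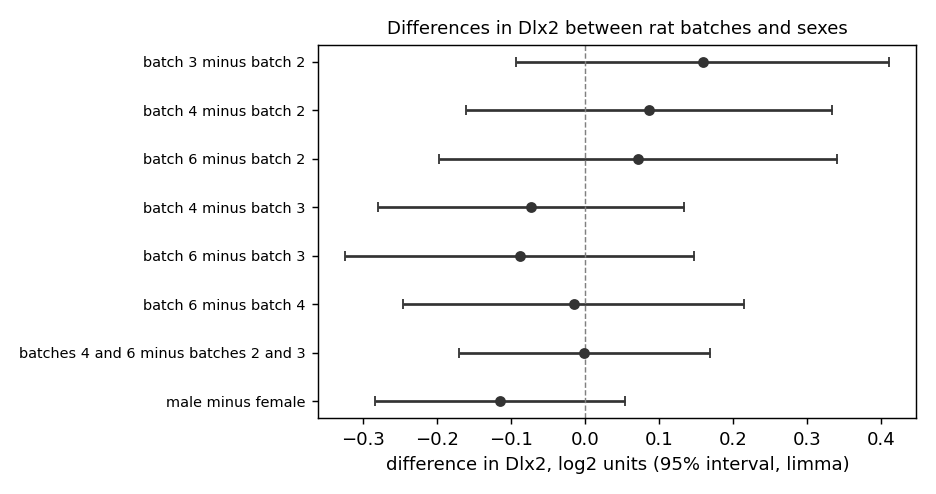
Differences in Dlx2 between rat batches and between males and females (log2 units), as points with 95% intervals from limma. All 8 intervals include 0, and the estimate for batches 4 and 6 against batches 2 and 3 lies at -0.00065.

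The third comparison asks which genes rose and fell with Dlx2 from rat to rat. Each other gene was regressed on the log2 value of Dlx2 with sex and batch as covariates, so that the slope is the log2 change of that gene per log2 unit of Dlx2 among rats of the same sex and batch. No gene passed (0 of 17249, which is 0% in either direction, limma, adjusted p under 0.05). The smallest adjusted p was 0.441. At an unadjusted p under 0.05 there were 1175 genes, or 6.81%, with 574 positive and 601 negative slopes, and ordinary regression and Spearman correlation also called 0 genes. A single gene standing alone would have needed a correlation of 0.510 in size to pass, while the extremes over all genes were 0.464 and -0.441. Counting error in Dlx2 would lower a full correlation with the remainder of its variance to an estimated 0.746. Observed correlations can exceed this value, above all within single batches. Correlations under 0.510 in size could not have passed for a gene standing alone.

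Among genes with a name, 12 belong to lists of the interneuron lineage, of GABA synthesis and transport and of interneuron subtypes. Those lists hold 19, 7 and 26 genes, of which 1, 1 and 10 have a name. Most list members, the subtype markers Sst and Pvalb and the lineage factor Lhx6 among them, were therefore not looked at. Only 3292 of the 17250 identifiers, or 19.1%, are paired with a name in the study's gene lists used here. None of the other DLX genes, and neither of the glutamate decarboxylase genes, has such a pair, so the genes nearest in function to Dlx2 are not analyzed here. The median correlation with Dlx2 over these 12 genes was 0.119 in size, with a range from -0.25 to 0.22. Over the 66 pairs that the 12 genes form with one another, the median size was 0.177, and per-gene medians ran from 0.120 for Vip to 0.301 for Cplx1. These are descriptions over the same 80 libraries, and pairs of more highly expressed genes carry less counting error.

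Slopes on Dlx2 were above 0 for 7 of the 12 interneuron genes, and 0 of 12 passed over all genes. Over all genes tested, 8920 of 17249 slopes were above 0, a share near that of the 12. The median slope was 0.05, against 0.0035 over all genes tested. Slc32a1 had a slope of 0.06 (95% interval -0.05 to 0.18, adjusted p = 0.873 by limma), with r = 0.12 (permutation p = 0.336) and rho = 0.10 (p = 0.395). Its correlation within batches 2, 3, 4 and 6 was 0.59, 0.04, -0.17 and 0.66, so the batches did not share a sign. Nr2f1, a nuclear receptor of caudally derived interneurons and other cortical cells, was the only lineage transcription factor with a name, and its slope was 0.05 (-0.07 to 0.17, adjusted p = 0.906 by limma).

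Vip and Crhbp were the interneuron genes with the lowest unadjusted p, and both slopes were negative. Vip encodes vasoactive intestinal peptide, the transmitter of a class of interneurons that inhibit other interneurons. Its slope was -0.12 (-0.23 to -0.01, unadjusted p = 0.0332, adjusted p = 0.725 by limma), with r = -0.24 (permutation p = 0.0383) and rho = -0.28 (permutation p = 0.0141). Its r was -0.44, 0.03, -0.16 and -0.48 in batches 2, 3, 4 and 6, and -0.25 without the 2 rats farthest from the median of Dlx2. Crhbp encodes the binding protein of corticotropin-releasing hormone and is found in somatostatin interneurons. Its slope was -0.20 (-0.37 to -0.02, unadjusted p = 0.0280, adjusted p = 0.725 by limma), with r = -0.25 (permutation p = 0.0426) and rho = -0.21 (permutation p = 0.0857). The r of Crhbp was -0.51, -0.16, -0.36 and 0.19 in batches 2, 3, 4 and 6, and -0.32 without the same 2 rats. Neither gene passed over all genes, and 45 such relations were computed.

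The highest correlation among the 12 was that of Htr3a, a serotonin-gated channel subunit of interneurons from the caudal ganglionic eminence, with r = 0.22 (permutation p = 0.0623) and rho = 0.20 (permutation p = 0.0961). It was 0.80 in batch 6, but -0.05, 0.16 and -0.13 in batches 2, 3 and 4. Without the 2 rats farthest from the median of Dlx2, it was 0.16. Reln, the secreted glycoprotein of a group of superficial interneurons, had r = 0.14 and Cplx1 had 0.12. Nos1 and Syt2, a calcium sensor of fast transmitter release, were at 0.06 and 0.04. Penk was at -0.06, Kcnc2, a potassium channel subunit of fast-spiking cells, at -0.09, and Calb1, the calcium-binding protein calbindin, at -0.16. The intervals of these 7 genes included 0.

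Subunits of the receptors that answer GABA are reported for 4 genes, and 0 passed. Gabra5, the alpha subunit of extrasynaptic receptors in cortex and hippocampus, had a slope of -0.07 (-0.17 to 0.02, adjusted p = 0.799 by limma), the lowest p of the 4. The slopes were 0.05 for Gabrg3, -0.01 for Gabrd and 0.03 for Gabbr2, a subunit of the metabotropic GABA receptor. For batch, 3 of the 4 passed, beside 59.4% of all genes.

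**Figure D4:**
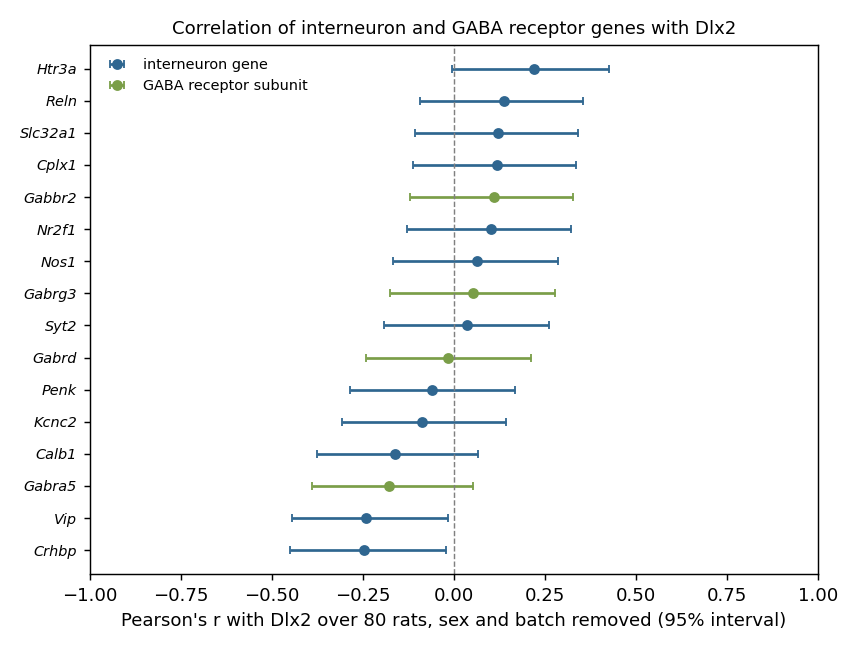
Pearson's r with Dlx2 over 80 rats, with sex and batch removed, for 12 interneuron genes (blue) and 4 GABA receptor subunits (green), with 95% intervals. Values lie between -0.25 for Crhbp and 0.22 for Htr3a, and the intervals of Vip and Crhbp are the only ones that leave out 0.

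Markers of other cells that a piece of PL could hold were tested in the same fit, and 0 of 30 list genes passed in all. The list of pyramidal neuron markers holds 17 genes, of which only 4 have a name (Slc17a6, Neurod6, Rbp4, Etv1). The slopes of these 4 were below 0, from -0.24 for Slc17a6 to -0.0023 for Etv1, beside 8920 of 17249 above 0 over all genes. Their lowest adjusted p was 0.743 (limma). Their correlations did not share a sign over batches 2, 3, 4 and 6. In that order r was 0.74, 0.12, 0.001 and -0.59 for Neurod6 and 0.36, 0.13, 0.04 and -0.50 for Etv1. It was -0.43, 0.26, -0.25 and -0.23 for Slc17a6 and -0.21, -0.23, -0.42 and 0.16 for Rbp4. Slopes were also below 0 for the 3 of 14 striatal markers with a name (Penk, Pdyn, Foxp2), with a median of -0.06. Cd24, the only 1 of 13 neuroblast and dividing cell markers with a name, was at -0.03. A name was present for 1 of 7 astrocyte and 1 of 11 oligodendrocyte lineage markers. It was present for 3 of 7 microglial and 2 of 9 vascular and meningeal markers. Among glia, Aldh1l1, an enzyme of astrocytes, had a slope of 0.15 (0.02 to 0.28) and Olig2, the oligodendrocyte lineage factor, a slope of 0.18 (0.0044 to 0.36), each with an unadjusted p under 0.05 and an adjusted p of 0.725 (limma). The microglial genes P2ry12, C1qa and Itgam were at -0.0020, -0.03 and 0.10, and the vascular and meningeal genes Vwf and Dcn at 0.10 and -0.17. None of the 30 list genes was at 0 in any rat. The lowest adjusted count over the 80 rats was 1713 for Neurod6, 749 for Slc32a1, 177 for Olig2 and 111 for P2ry12. For batch, 7 of the 12 interneuron genes and 17 of the 30 list genes passed, against 59.4% of all genes, and 0 of 30 passed for sex.

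None of the named genes with the strongest slopes was in a list, and they are given as a description because they were picked by these values. The highest t was that of Smad9, a transcription factor of bone morphogenetic protein signaling, with a slope of 0.22 (0.10 to 0.33) and r = 0.40. Its r was positive in each of batches 2, 3, 4 and 6, at 0.64, 0.15, 0.49 and 0.35. After it came Ubap2l (r = 0.37), Acer2, a ceramidase (0.34), Grm6, a metabotropic glutamate receptor (0.34), and Lrsam1, a ubiquitin ligase (0.34), followed by Sp100, Zfp773-ps1, Mob3c, Scn4a and Smoc1 at 0.32 to 0.34. The lowest t was that of Rabggtb, the beta subunit of the enzyme that prenylates Rab proteins, with a slope of -0.18 (-0.27 to -0.09) and r = -0.42, which was negative in each batch and ran from -0.80 in batch 6 to -0.33 in batch 3. Slc27a2, an acyl-CoA synthetase that was at 0 in at least 1 rat, had r = -0.39, and Rbks (ribokinase), Eef1akmt2 and Gimap8 had r of -0.38 each. All 15 had an adjusted p of 0.725 (limma).

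A count of 0 co-varying genes was unusual among well expressed genes but frequent at the level of Dlx2. Each other named gene was put in the place of Dlx2 in an ordinary regression with the same covariates. The median number of genes called over 3291 named genes was 2211, and 18.1% of them had 0. Among 1887 named genes with a mean of at least 8, the median was 4249 and 3.50% had 0. Among the named genes within 0.5 log2 units of the mean of Dlx2, the median was 4, and 79 of them, or 36.7%, had 0. Interneuron genes reached 6583 for Slc32a1, 5369 for Htr3a, 3229 for Vip, 652 for Crhbp and 453 for Syt2, whose mean of 5.57 was the nearest to that of Dlx2. Aldh1l1 and P2ry12, at means of 7.99 and 7.55, had 0 as Dlx2 did. Named genes are those in the study's lists of local genetic effects on expression, so they are not a random draw from the table.

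**Figure D5:**
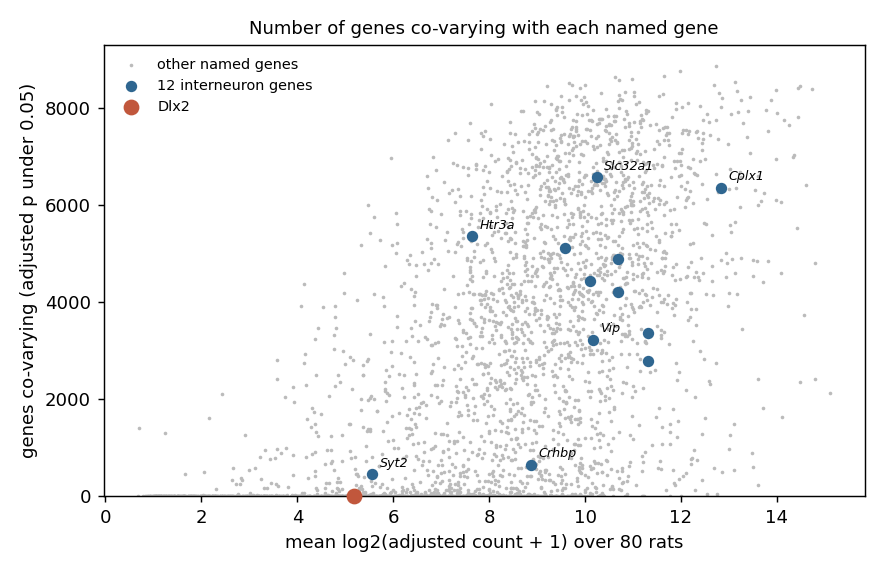
Number of genes co-varying with each named gene (adjusted p under 0.05, sex and batch as covariates) against its mean log2(adjusted count + 1), with 12 interneuron genes in blue and Dlx2 in red. Dlx2 lies at 0, Syt2 at 453 and Slc32a1 at 6583.

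In the order of RefSeq genes on chromosome 3 (assembly GRCr8, used for gene order alone), the protein-coding genes before Dlx2 are Hat1, Metap1d and Dlx1, and those after it are Itga6, Pdk1 and Rapgef4. None of these 6 neighbors is paired with an identifier in the names used here, so the co-variation of Dlx2 with Dlx1, with which it shares forebrain enhancers, was not tested.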

How the data were processed

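PolyA RNA from bilateral PL tissue of each rat was sequenced by the study. The authors trimmed reads with cutadapt, estimated gene counts with RSEM on the Ensembl rat transcriptome (Rnor_6.0 per the labels; tool versions are not given in the sources used here), scaled them by upper quartile in DESeq2, filtered samples and genes, and deposited log2 values of the adjusted count plus 1. These are not raw counts, so no count test was run. How RSEM divided reads shared with related genes is not visible in the deposited values.

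Sex, rat batch and removal were taken from the labels. Genes were tested with limma 3.58.1 in R 4.3.3 (lmFit, eBayes with a variance trend), with Benjamini-Hochberg adjustment over 17250 genes and a threshold of 0.05. Permutation tests used 100000 permutations, or all of them where called exact, and were two-sided. Scaling factors (0.5595 to 1.7665) were recovered from whole numbers missing or doubled among adjusted counts. For 73 of 80 libraries the factor stood clear of the others, and 58 of 60 simulated factors came within 1%. The simulated factors did not reach as low as the 0.5595 of the deepest library, which also held the 82 Dlx2 reads. That factor lay near the lower search bound of 0.55. The fits were tested on simulated data. The rest ran in Python 3.11.15 on scipy 1.17.1, pandas 2.3.3 and numpy 2.4.6.

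Dlx2, the gene lists and the tests were chosen with earlier results of these data known. Genes named are Dlx2, list members with an identifier, the 10 highest and 5 lowest named genes by t of the slope (clone-based names left out; 1 list member is not reported here), and the 3 nearest protein-coding genes on each side. Each library is 1 rat, so the p-values measure spread among libraries of different rats, with counting error and differences in preparation included. Relatedness of rats was not modeled. No sequence is shown for Dlx2.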

Additional observations from a re-analysis of the deposited data

How the results depend on the processing

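Dlx2 stayed short of the threshold for batch and sex under every alternative run. For batch, p ran from 0.408 to 0.996 over 10 alternatives, adjusted over all genes in limma or unadjusted in the permutation of Dlx2 alone (0.514). The upper end belongs to the contrast of batches 4 and 6 with batches 2 and 3 (limma), which is not a refit of the test over all batches. With each of the 80 rats left out in turn, the adjusted p for batch ran from 0.483 to 0.695 (limma). The sex difference kept its sign, at -0.139 to -0.0939 log2 units with each rat left out in turn and at -0.31 on inverse normal values. The interaction had adjusted p of 0.9999 to 1.000 (limma, 3 alternatives). Genes co-varying with Dlx2 numbered 0 under 13 alternatives and with each rat left out in turn (0 to 0), and 0 list genes passed under 11. Shifting libraries to a common median moved them by -0.02 to 0.04 log2 units. The batch shifts of Slc32a1, Nos1, Cplx1 and Penk relative to Dlx2 passed under each of 5 alternatives added after the data were seen (adjusted p up to 0.0169, limma). That of Nr2f1, which did not pass, changed sign to -0.0186 without the sex covariate.

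Slopes on Dlx2 that changed sign were all of list genes that did not pass in either fit, and the cause was not tested. In batches 2 and 3 alone, the slopes were 0.0609 for C1qa, 0.0315 for Cd24, 0.111 for Etv1, -0.0185 for Gabbr2, -0.0545 for Gabrg3, 0.105 for Kcnc2, 0.170 for Neurod6 and 0.0142 for P2ry12. In batches 4 and 6 alone, that of Gabrd was 0.0277. With the first 20 expression principal components as covariates they were 0.0444 for Cd24, -0.0122 for Cplx1, 0.00493 for Dcn, 0.111 for Foxp2, -0.000731 for Gabbr2, -0.00383 for Gabrg3, 0.0474 for Neurod6, -0.0517 for Nr2f1, 0.0433 for Penk, 0.00070 for Rbp4, -0.0572 for Reln, -0.0260 for Slc32a1 and -0.207 for Syt2. With the first 5 they were 0.0198 for Cd24, 0.0572 for Etv1, -0.0275 for Gabrg3, 0.0535 for Neurod6, -0.0391 for Nos1 and 0.0192 for P2ry12. Inverse normal values gave 0.0119 for Etv1 and 0.0123 for P2ry12, no covariates gave 0.00906 for C1qa and 0.0185 for Gabrd, and a pseudocount of 8 gave 0.00205 for Etv1. Without the 2 rats farthest from the median of Dlx2, Etv1 was at 0.0539 and P2ry12 at 0.0108. No paired analysis was possible within PL because each rat gave 1 PL library.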
